A study of Mus musculus with 2 samples.

Results

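The heat shock chaperones described here are 9 genes: the HSP90 paralogues *Hsp90aa1* and *Hsp90ab1*, the HSP70 genes *Hspa8*, *Hspa1a* and *Hspa1b*, the HSP70 partners *Dnajb1* and *Hsph1*, the small heat shock protein gene *Hspb1* and the mitochondrial co-chaperonin gene *Hspe1*. They were taken by symbol from the count tables and are 9 of the 26867 genes that had a UMI in the cells kept, of which 23977 were seen in Batch 1 and 25011 in Batch 2. Whole lungs of wild type (wt) C57BL/6J mice were profiled at postnatal day 1 (PND1) by Drop-seq, a droplet method that counts the 3′ ends of transcripts by unique molecular identifiers (UMIs). Batch 1 and Batch 2 were 1 mouse each and shared strain, genotype, age and tissue. Neither was treated, and the batch, the mouse and the library cannot be told apart. Cells in which mitochondrial genes took more than 10% of UMIs were left out, which kept 2388 cells of Batch 1 and 5615 of Batch 2. The 9 genes were chosen with their levels in these cells already known, selected on the UMI counts per class that make up those levels, so the levels are a description with no test.

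Chaperones bind unfolded or partly folded proteins and help them to reach or keep their shape. HSP70 proteins take up short exposed stretches and release them on ATP exchange, J-domain proteins such as DNAJB1 start that cycle, HSPH1 (HSP110) resets it by nucleotide exchange, and HSP90 dimers take over late folding of kinases, receptors and other clients. HSP90AB1 and HSPA8 are made in unstressed cells, whereas HSPA1A, HSPA1B, DNAJB1, HSPH1, HSPB1 and HSP90AA1 are the classical products that heat shock factor 1 raises when proteins unfold. In motile cilia, HSP90 and HSP70 also work with dedicated factors that assemble dynein arms in the cytoplasm.

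The kept cells held 4432553 UMIs in Batch 1 and 18232639 in Batch 2, and no cell barcode was shared by the libraries. Clustering without the 9 genes or the other chaperone, heat shock factor and immediate early genes gave 37 clusters, which marker genes placed in 17 named classes, and 392 cells stayed unnamed. Each class name stands for cells that resemble that type by its markers. In the erythroid-like class 41 of 77 and 37 of 79 cells also held at least 3 markers of another lineage, and without them it stood at 0.621 and 1.03 UMIs per 10000 of *Hsp90aa1*, 5.28 and 2.47 of *Hsp90ab1* and 2.07 and 1.58 of *Hspa8*. Airway cells were few. The ciliated-like class had 8 cells in Batch 1 and 35 in Batch 2, the secretory airway-like class 4 and 35, and a class with both ciliated and secretory markers 1 and 49. The ciliogenesis factor *Foxj1* stood at 10.2 and 11.7 UMIs per 10000 in ciliated-like cells and at 0 and 0.016 in blood endothelial-like cells. The median mitochondrial share of a class was 0.89% to 4.48% in Batch 1 and 3.71% to 7.06% in Batch 2. Free RNA was present: the AT2 gene *Sftpc* was found in 51.4% and 81.1% of blood endothelial-like cells (median 1273 and 1898 UMIs), at 4.79% and 3.93% of its level in the whole batch. No lung class is known to lack heat shock genes, so a share of cells with 1 UMI of them cannot be set against a class that should have none.

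Of the 9 genes, 6 have an entry in the RefSeq promoter table (build GRCm38.p6, 250 bases before to 50 after the start). These 3 promoters are of a HSP70 gene, a small heat shock protein gene and a mitochondrial one. They are printed because each held at least 1 match to 2 adjoining units of the heat shock element. Of the 3, only *Hspe1* also held runs of 3 units. The search took GAANNTTC or TTCNNGAA, which overlap where units run on and which read as themselves on the other strand, and capitals mark what it found. *Hspa1a* lies at chr17:34972107-34972406 on the minus strand, *Hspb1* at chr5:135887669-135887968 and *Hspe1* at chr1:55087898-55088197 on the plus strand.
Hspa1a: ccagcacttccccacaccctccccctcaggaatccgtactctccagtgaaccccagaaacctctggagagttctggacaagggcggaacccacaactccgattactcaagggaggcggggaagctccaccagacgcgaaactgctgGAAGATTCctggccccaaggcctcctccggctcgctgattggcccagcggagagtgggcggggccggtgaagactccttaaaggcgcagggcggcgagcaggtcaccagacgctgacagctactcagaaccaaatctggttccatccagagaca
Hspb1: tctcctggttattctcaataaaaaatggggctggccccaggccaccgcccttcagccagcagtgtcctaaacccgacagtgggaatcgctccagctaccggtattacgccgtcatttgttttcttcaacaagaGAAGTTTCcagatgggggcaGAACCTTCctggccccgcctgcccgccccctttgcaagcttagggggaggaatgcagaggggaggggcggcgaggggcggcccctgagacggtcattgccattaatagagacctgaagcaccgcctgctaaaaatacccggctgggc
Hspe1: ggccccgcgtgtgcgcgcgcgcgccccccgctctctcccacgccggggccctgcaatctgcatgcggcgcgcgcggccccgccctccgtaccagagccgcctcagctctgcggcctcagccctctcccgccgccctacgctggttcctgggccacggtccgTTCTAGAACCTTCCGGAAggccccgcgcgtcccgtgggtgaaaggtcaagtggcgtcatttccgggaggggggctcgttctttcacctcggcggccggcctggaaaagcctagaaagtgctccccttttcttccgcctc

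The *Hspa1a* window held 1 match, that of *Hspb1* 2 and that of *Hspe1* 3, against 15.1% of all 32851 promoter windows with at least 1. Longer runs of the unit (GAANNTTCNNGAA or TTCNNGAANNTTC) were found 2 times in *Hspe1* and 1 time in *Hsph1*, and in 0.603% of all windows. The *Hspa1b* window had the same base as *Hspa1a* at 296 of 300 positions (98.7%), and neither *Dnajb1* window held a match. A match is a string of letters and not a measured binding site.

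The genes differed in how well their reads can be placed. In the GENCODE transcripts of the same build (release 21), 81.8% of the 50-base words in the last 500 bases of *Hspa8* also occurred in other genes, mostly processed pseudogenes, against 53.2% for *Hspe1*, 16.0% for *Hspb1*, 7.76% for *Hsp90ab1* and 0% for *Hsp90aa1*, *Dnajb1* and *Hsph1*. None of the genes that shared words with the HSP90 genes, *Hspa8*, *Hspb1* or *Hspe1* had a row in the counts. *Hspa1a* and *Hspa1b* lie close together on chromosome 17 (34969190 to 34972156 and 34956436 to 34959238, both minus strand) and had 60.3% and 62.3% of the words of their whole transcripts in other genes, mostly in each other. Their last 500 bases shared none, yet the split of UMIs between them is uncertain.

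*Hsp90ab1*, the constitutive HSP90 (chromosome 17, 45567775 to 45573271, minus strand), was the most abundant of the 9 genes. Over all cells it held 15.0 and 16.0 of every 10000 UMIs in Batch 1 and Batch 2, rank 94 and 76 among all genes, and 77.8% and 86.5% of cells had a UMI. *Hspa8* followed at 6.74 and 6.63 per 10000, then *Hsp90aa1* at 3.82 and 6.43, *Hspe1* at 1.76 and 1.33 and *Hspb1* at 1.51 and 3.15. The other 4 genes were scarce. *Dnajb1* stood at 0.309 and 0.404, *Hsph1* at 0.068 and 0.124, *Hspa1a* at 0.047 and 0.06 and *Hspa1b* at 0.032 and 0.029 per 10000. Because the assay counts 3′ ends, these levels were not divided by transcript length.

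*Hsp90aa1*, the inducible HSP90 (chromosome 12, 110690605 to 110702728, minus strand), differed widely between classes. In ciliated-like cells it reached 65.9 UMIs per 10000 in Batch 1 and 43.6 in Batch 2 (mean 54.7 ± 15.8 SD, n = 2 batches), and the exact Poisson intervals, which cover counting error only, ran from 57.2 to 75.6 and from 40.7 to 46.6. This was the highest level of any class in both batches. The next of the 15 classes with at least 5 cells in each batch was the mesothelial-like class at 10.7 and 13.3, and its intervals lay apart from those of the ciliated-like class. The mesothelial-like class was 20 and 11 cells, with 43 and 55 *Hsp90aa1* UMIs.

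The class with ciliated and secretory markers lay between, at 11.8 per 10000 of *Hsp90aa1* in its only Batch 1 cell and 26.7 in Batch 2. Secretory airway-like cells had 11.0 in Batch 1 (11 UMIs, interval 5.48 to 19.6) and 4.78 in Batch 2. The alveolar classes had 5.99 and 7.35 in AT1-like, 4.36 and 6.30 in AT1 and AT2-like and 3.14 and 5.15 in AT2-like cells, which lay below the secretory airway-like value in Batch 1, where that class was 4 cells, and above it in Batch 2. Pooled, the 3 alveolar classes stood at 3.99 and 5.79, so that the ciliated-like level was 16.5-fold and 7.52-fold as high.

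Outside the epithelium *Hsp90aa1* stood at 5.93 and 8.21 per 10000 in myofibroblast or smooth muscle-like cells, 5.07 and 9.83 in B lymphocyte-like cells and 4.95 and 7.56 in lymphatic endothelial-like cells. These classes and the AT1-like class followed closely on one another, and their ranges over the batches overlapped. T, natural killer or innate lymphoid-like cells had 4.50 and 3.46, macrophage or monocyte-like cells 3.90 and 2.94, matrix fibroblast-like cells 3.15 and 4.03 and pericyte-like cells 2.85 and 3.73, again with overlapping ranges. Blood endothelial-like cells (2.19 and 2.54), erythroid-like cells (0.931 and 1.59) and neutrophil-like cells (0 of 20890 UMIs, which allows up to 1.44 per 10000, and 1.92) were lowest. The neutrophil-like class of Batch 1 had 10 cells.

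**Figure D1:**
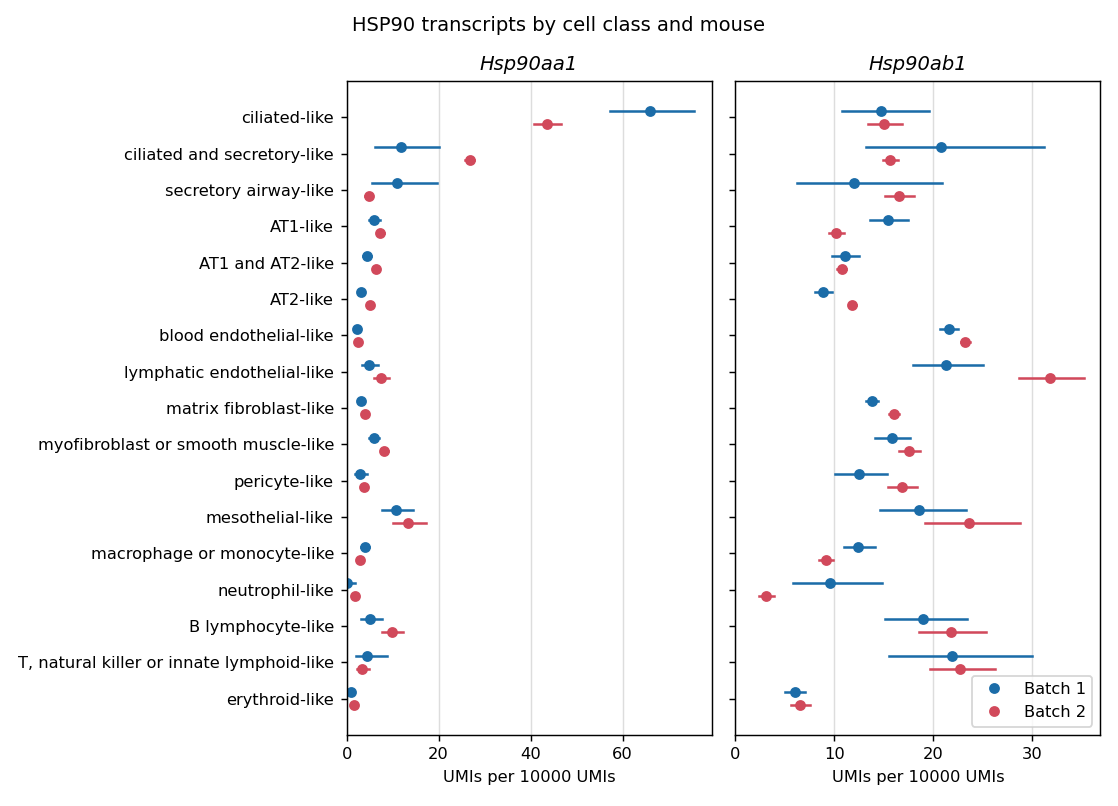
Levels of *Hsp90aa1* and *Hsp90ab1* in UMIs per 10000 in each cell class, 1 point per batch with its exact Poisson interval for counting error. *Hsp90aa1* in ciliated-like cells (65.9 and 43.6) stands above every other class with at least 5 cells in each batch, while *Hsp90ab1* in the same cells (14.7 and 15.0) lies in the middle of its range.

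*Hsp90ab1* followed another order. It was high in lymphatic endothelial-like (21.3 and 31.9 per 10000), T, natural killer or innate lymphoid-like (21.9 and 22.8), blood endothelial-like (21.6 and 23.3), mesothelial-like (18.6 and 23.6) and B lymphocyte-like cells (19.0 and 21.8), and these 5 classes could not be ordered, since their ranges or counting intervals overlapped. Mesenchymal classes were in the middle, at 15.9 and 17.6 in myofibroblast or smooth muscle-like, 13.8 and 16.0 in matrix fibroblast-like and 12.5 and 16.9 in pericyte-like cells. Ciliated-like cells, at 14.7 and 15.0, sat among them.

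In the alveolar classes and macrophages, AT1-like cells had 15.4 and 10.2 per 10000 of *Hsp90ab1*, AT1 and AT2-like cells 11.0 and 10.7, AT2-like cells 8.88 and 11.8, and macrophage or monocyte-like cells 12.4 and 9.18. AT1-like cells lay among the mesenchymal classes in Batch 1 and below them in Batch 2, and the other alveolar classes lay below them in both. Neutrophil-like cells (9.57 and 3.07) and erythroid-like cells (5.99 and 6.53) were lowest. Airway cells with secretory markers had 12.0 and 16.5, and those with both sets 20.8 and 15.7, values that lay around those of the ciliated-like class.

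The balance of the HSP90 paralogues therefore differed between classes. *Hsp90aa1* made up 81.7% of the UMIs of both genes in ciliated-like cells of Batch 1 (exact binomial interval 76.4% to 86.3%) and 74.4% (71.7% to 76.8%) in Batch 2. It made up 36.1% and 63.0% in cells with ciliated and secretory markers, 47.8% and 22.4% in secretory airway-like cells, 36.4% and 35.9% in mesothelial-like cells, 27.9% and 42.0% in AT1-like cells and 26.1% and 30.4% in AT2-like cells. The share was smallest among large classes in blood endothelial-like cells, at 9.19% and 9.84%. The ciliated-like class was the only one with at least 5 cells in each batch in which *Hsp90aa1* outnumbered *Hsp90ab1* in both batches.

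Within the ciliated-like class every one of the 8 Batch 1 cells and 34 of 35 Batch 2 cells had an *Hsp90aa1* UMI. The level per cell ran from 26.2 through a median of 54.9 to 152 per 10000 in Batch 1 and from 0 through 28.4 to 103 in Batch 2. Cells over 100 per 10000 numbered 1 of 8 and 2 of 35, and they held 42.2% and 35.1% of the *Hsp90aa1* UMIs of the class but 18.4% and 14.9% of all its UMIs. Without them the class stood at 46.6 and 33.2, still above the mesothelial-like class. In Batch 2, cells with ciliated and secretory markers ran from 0 through 22.0 to 128, and secretory airway-like cells from 0 through 4.59 to 19.0.

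The cells with both marker sets were also the deepest, with a median of 15456 UMIs in Batch 2 against 3562 in ciliated-like and 6066 in secretory airway-like cells. Whether droplets with more than 1 cell enter that class was not tested.

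**Figure D2:**
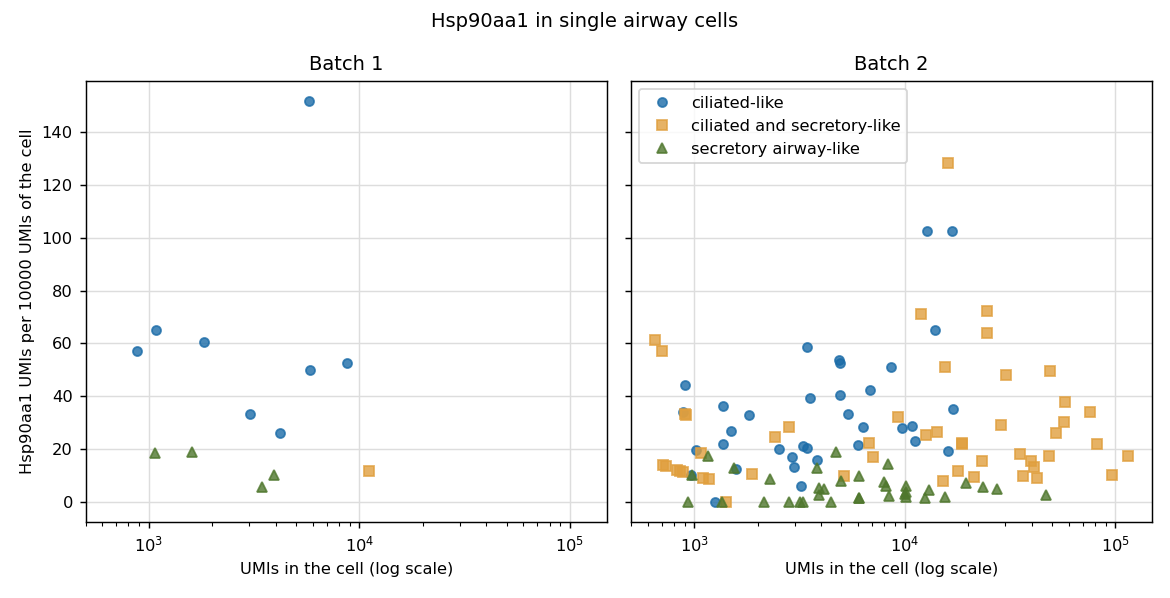
*Hsp90aa1* in single airway cells: UMIs per 10000 of each cell against its total UMIs, for the ciliated-like, ciliated and secretory, and secretory airway-like classes, with 1 mark per cell, totals on a log axis and 1 panel per batch. Ciliated-like cells reach 152 per 10000 in Batch 1 and 103 in Batch 2, secretory airway-like cells at most 19.0, and the class with both marker sets extends to the highest totals.

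At equal depth the same classes led. After each cell with at least 1000 UMIs was thinned to 1000, *Hsp90aa1* was found in 7 of 7 ciliated-like cells of Batch 1 and 30 of 32 (93.8%, exact binomial interval 79.2% to 99.2%) of Batch 2; before thinning the shares were 100% and 97.1%. Cells with ciliated and secretory markers showed it in 80.0% of 40 in Batch 2. Mesothelial-like cells had 65.0% of 20 and 81.8% of 11, AT1-like cells 50.0% and 48.0% and AT2-like cells 24.6% and 39.3%. Secretory airway-like cells gave 4 of 4 and 33.3% of 33.

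*Hsp90aa1* was seen least often in blood endothelial-like (17.3% and 20.1%) and erythroid-like cells (8.22% and 15.8%, median depth 2964 and 2883 UMIs before thinning) and in none of 10 and 15.9% of 88 neutrophil-like cells. The 0 of 10 allows up to 30.0% of cells with a UMI at that depth, which is no limit on cells with the transcript. *Hsp90ab1* was detected in most cells of nearly every class at the same depth, for example 80.0% and 83.8% of blood endothelial-like, 88.2% and 100% of lymphatic endothelial-like and 85.7% and 81.2% of ciliated-like cells. It fell short of that in erythroid-like (38.4% and 43.9%) and neutrophil-like cells (60.0% and 22.7%). Free RNA adds to all these shares by an amount that was not tested.

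**Figure D3:**
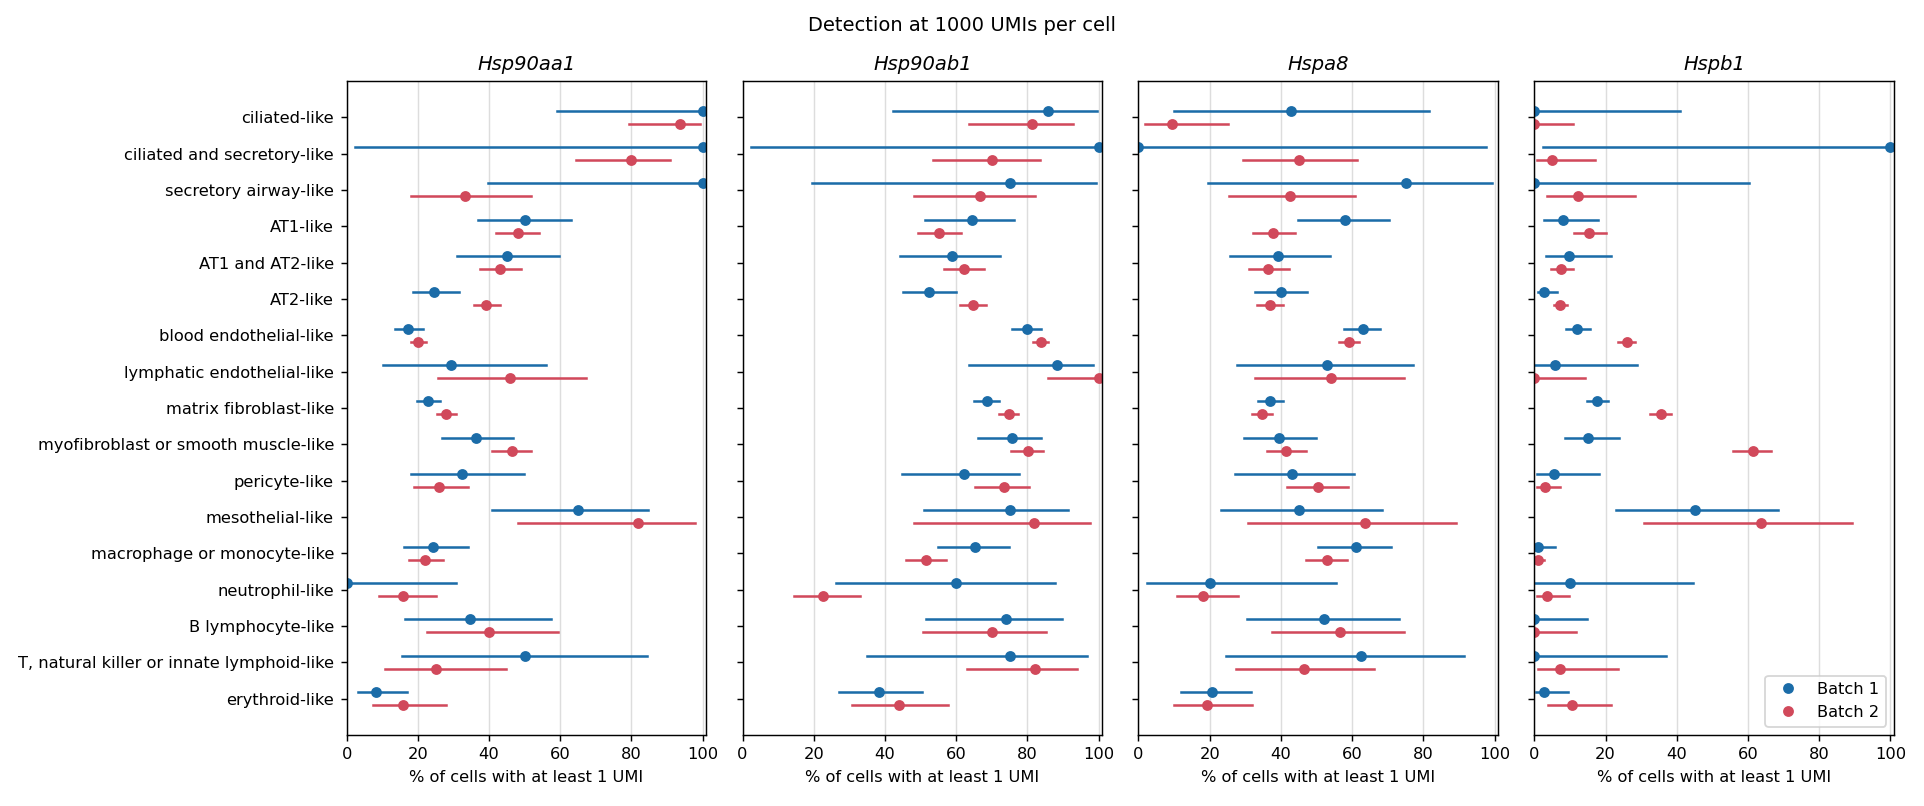
Share of cells, in percent, with at least 1 UMI of *Hsp90aa1*, *Hsp90ab1*, *Hspa8* or *Hspb1* after thinning every cell to 1000 UMIs, by class and batch with exact binomial intervals. *Hsp90aa1* is found in 100% and 93.8% of ciliated-like cells and in 17.3% and 20.1% of blood endothelial-like cells, whereas *Hspb1* in myofibroblast or smooth muscle-like cells moves from 15.2% in Batch 1 to 61.3% in Batch 2.

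*Hspa8*, the constitutive HSP70 (chromosome 9, 40800984 to 40810087, plus strand), was high in macrophage, lymphoid and endothelial classes. It stood at 12.1 and 8.91 per 10000 in macrophage or monocyte-like cells, 12.4 and 8.10 in T, natural killer or innate lymphoid-like cells, 10.4 and 10.5 in blood endothelial-like cells, 9.93 and 7.30 in B lymphocyte-like cells and 8.74 and 8.68 in lymphatic endothelial-like cells. The ranges of the first 3 overlapped, and the last 2 lay below the blood endothelial-like class. Matrix fibroblast-like cells had 4.71 and 4.76, AT2-like cells 5.87 and 4.90, neutrophil-like cells 2.87 and 2.23 and erythroid-like cells 2.31 and 2.17.

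In ciliated-like cells *Hspa8* did not repeat between batches, with 9.60 per 10000 in Batch 1 and 2.99 in Batch 2. The single cell over 100 per 10000 of *Hsp90aa1* in Batch 1 held 18 of the 30 *Hspa8* UMIs, and the class stood at 4.70 without it. In Batch 2 the class stood at 2.02 without its 2 such cells, which held 25 of 59. Pericyte-like cells differed the other way, with 5.43 and 9.28.

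The inducible HSP70 genes were close to the limit of what this depth can show. *Hspa1a* had 21 UMIs in all of Batch 1 and 109 in Batch 2, and *Hspa1b* 14 and 53. In the 15 classes with at least 5 cells in each batch, *Hspa1a* had 3 UMIs or fewer in 14 classes of Batch 1 and 9 of Batch 2, and *Hspa1b* in 15 and 11. The largest sums of *Hspa1a* were in matrix fibroblast-like cells, with 9 and 35 UMIs or 0.068 and 0.149 per 10000, and ciliated-like cells had 1 and 2. No order of classes can be read for either gene.

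*Dnajb1*, the J-domain partner of HSP70 (chromosome 8, 83608193 to 83612653, plus strand), was low throughout. It stood at 0.819 and 0.328 per 10000 in AT1-like, 0.64 and 0.557 in ciliated-like, 0.419 and 0.409 in blood endothelial-like and 0.28 and 0.319 in matrix fibroblast-like cells. Secretory airway-like cells of Batch 2 were the highest at 1.54 (46 UMIs), while the 4 cells of Batch 1 had none of 10028 UMIs, which allows up to 2.99. Macrophage or monocyte-like cells had 0 and 16 UMIs.

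*Hsph1*, the HSP110 exchange factor (chromosome 5, 149614287 to 149636376, minus strand), had 30 and 226 UMIs. It was highest in myofibroblast or smooth muscle-like cells of Batch 2, at 0.80 per 10000 (51 UMIs, interval 0.595 to 1.05), against 0.152 (3 UMIs) in Batch 1. Matrix fibroblast-like cells had 0.045 and 0.153. In both classes the intervals of the batches did not overlap, on 3 and 6 UMIs in Batch 1. Over all classes, 12.7% of values of genes with at least 1 UMI per 10000 in either batch lay apart upward. *Hsph1* was below that limit in both classes.

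*Hspb1*, a small heat shock protein that binds unfolding proteins and actin filaments (chromosome 5, 135887919 to 135889563, plus strand), was high in the mesothelial-like class. It stood there at 12.2 and 20.7 per 10000 in Batch 1 and Batch 2, on 49 and 86 UMIs of 20 and 11 cells. Myofibroblast or smooth muscle-like cells came level with the mesothelial-like class in Batch 2 only, at 20.8 (1329 UMIs), from 1.77 (35 UMIs) in Batch 1. Matrix fibroblast-like cells had 2.29 and 5.72, blood endothelial-like cells 1.46 and 4.24, AT1-like cells 0.819 and 1.83 and erythroid-like cells 0.445 and 1.73. It was near 0 in lymphatic endothelial-like (0.146 and 0.172), macrophage or monocyte-like (0.099 and 0.234) and pericyte-like cells (0.271 and 0.399) and was not seen among 45339 and 75312 UMIs of B lymphocyte-like cells, which allows up to 0.662 and 0.398.

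Ciliated-like cells had 0.96 and 0.557 per 10000 of *Hspb1*, on 3 and 11 UMIs. The classes most like them also had little *Hspb1*. Cells with ciliated and secretory markers had 0.905 and 0.582, secretory airway-like cells 0 and 1.00 and AT2-like cells 0.508 and 0.729. Before thinning 2 of 8 and 6 of 35 ciliated-like cells had an *Hspb1* UMI. At 1000 UMIs none of 7 and 32 cells had one, which allows up to 42.9% and 9.38% of cells with a UMI at that depth and is no limit on cells with the transcript. The shares in myofibroblast or smooth muscle-like cells were 15.2% and 61.3%, in matrix fibroblast-like cells 17.7% and 35.4% and in mesothelial-like cells 45.0% and 63.6%.

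*Hspb1* differed by 2-fold or more between the mice in more classes than any other member. It was higher in Batch 2 in 11 of 15 classes, with intervals apart in 6 (over all classes and the genes with at least 1 UMI per 10000 in either batch, 12.7% of values lay apart upward and 12.7% downward), and in 5 of them by at least 2-fold. The fold was 11.8 in myofibroblast or smooth muscle-like cells, where it ranked 11 of 2310 genes compared and where 12.9% of genes were at least 2-fold higher. In matrix fibroblast-like cells it was 2.50-fold (10.9% of genes), in blood endothelial-like cells 2.90-fold (6.48%), in AT1-like cells 2.24-fold (9.20%) and in erythroid-like cells 3.88-fold (18.1%). Without the cells that held markers of another lineage, the erythroid-like class stood at 0.518 and 0.549 per 10000 and the AT1-like class at 0.892 and 1.75, and the intervals of the batches overlapped in both.

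The difference ran through the clusters inside a class. The pair of myofibroblast or smooth muscle-like clusters stood at 2.60 and 31.6 and at 0.925 and 14.2 per 10000 of *Hspb1* in Batch 1 and Batch 2. Among the blood endothelial-like clusters, 1 of 49 and 150 cells had the most *Hspb1* in both batches, at 4.72 and 13.7. Matrix fibroblast-like cells were split by batch, since 797 of the 907 Batch 1 cells lay in a cluster that held 68 of the 1233 Batch 2 cells, and in that cluster *Hspb1* stood at 2.41 and 8.23.

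Immediate early genes, which signalling and tissue dissociation are both known to raise, moved with the batch too. Their 17 genes summed to 41.0 and 163 per 10000 in myofibroblast or smooth muscle-like cells, 14.2 and 91.2 in matrix fibroblast-like cells, 32.0 and 82.0 in blood endothelial-like cells and 18.9 and 54.9 in ciliated-like cells. Their part in the *Hspb1* difference was not tested, nor was that of the higher mitochondrial share of Batch 2.

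*Hsp90aa1* was higher in Batch 2 in 12 of 15 classes, with intervals apart in 5, and lower with intervals apart in 1, the ciliated-like class. *Hsp90ab1* was apart upward in 5 and downward in 3 classes, and *Hspa8* in 1 and 3. Over all classes and the genes with at least 1 UMI per 10000 in either batch, 12.7% of values lay apart upward and 12.7% downward. No class differed by 2-fold for *Hsp90aa1*, and 1 class did for *Hsp90ab1* (neutrophil-like) and for *Hspa8* (ciliated-like), both lower in Batch 2. By the ratio of Batch 2 to Batch 1, *Hsp90ab1* ranked 1138 of 1771 genes from the top in neutrophil-like cells, so many genes fell further there. *Hspa8* ranked 2417 of 2553 in ciliated-like cells. The neutrophil-like class of Batch 1 was 10 cells and 20890 UMIs.

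*Hspe1* encodes HSP10, the lid of the mitochondrial HSP60 chamber (chromosome 1, 55088132 to 55091307, plus strand). It stood at 3.75 and 2.92 per 10000 in B lymphocyte-like cells, 2.42 and 1.82 in macrophage or monocyte-like, 2.41 and 2.03 in matrix fibroblast-like and 2.33 and 1.80 in myofibroblast or smooth muscle-like cells. Blood endothelial-like cells had 1.30 and 0.754, ciliated-like cells 0.64 and 1.06 on 2 and 21 UMIs, and erythroid-like cells 0.728 and 0.305. Most neighbours in this order overlapped.

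**Figure D4:**
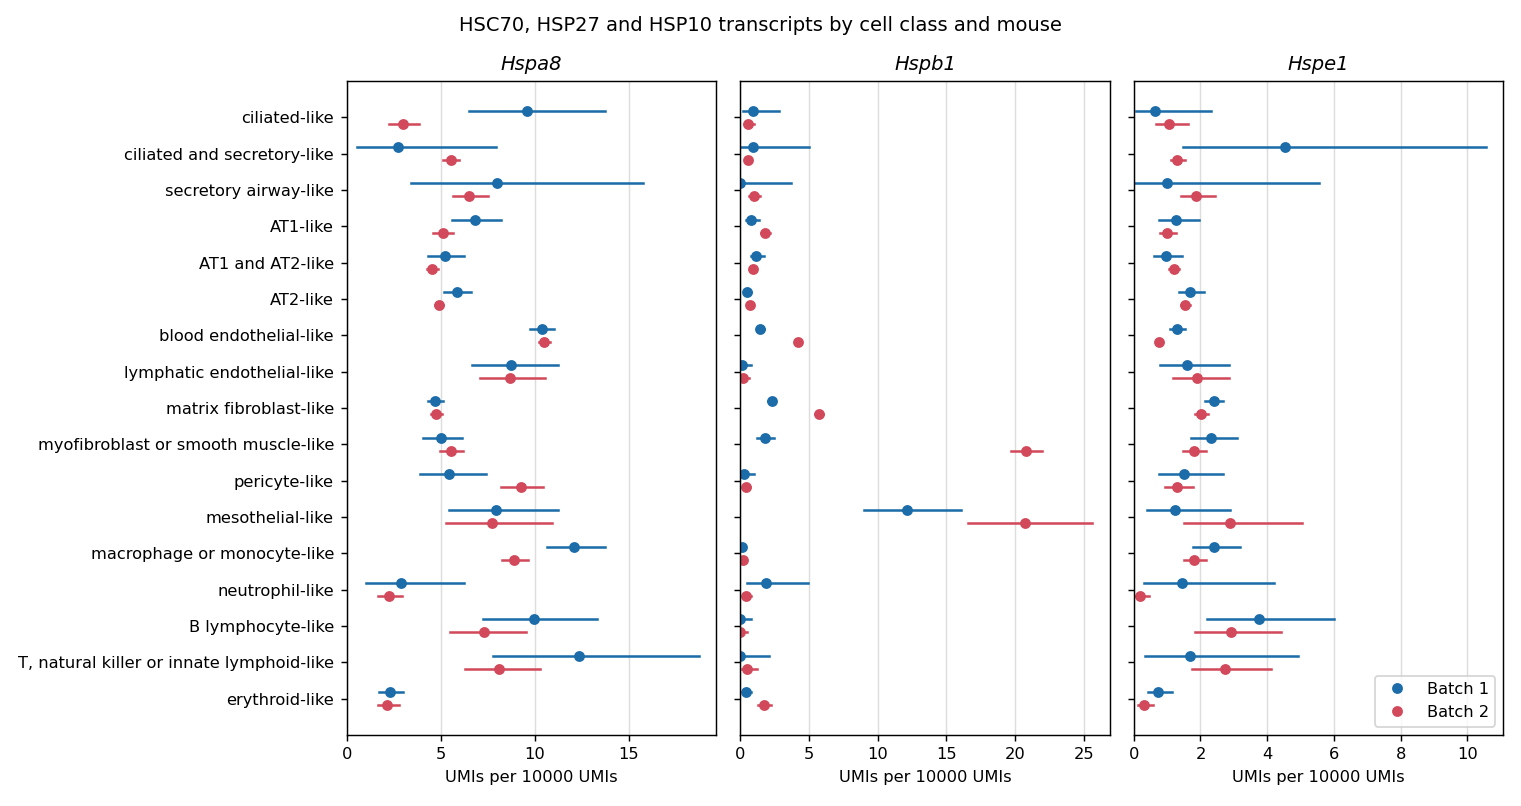
Levels of *Hspa8*, *Hspb1* and *Hspe1* in UMIs per 10000 in each cell class, 1 point per batch with its exact Poisson interval. *Hspb1* in myofibroblast or smooth muscle-like cells moves from 1.77 to 20.8 between the batches, and *Hspa8* in ciliated-like cells from 9.60 down to 2.99.

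The order of the 15 classes was most alike in both batches for *Hsp90aa1*. The correlation of its log2 levels between batches was 0.91, against 0.80 for *Hsp90ab1* and *Hspb1*, 0.74 for *Hspa8*, 0.58 for *Hspe1*, 0.55 for *Dnajb1*, 0.24 for *Hsph1*, 0.15 for *Hspa1a* and -0.27 for *Hspa1b*. These are descriptions over 15 points whose classes in a batch share 1 mouse and library. The genes whose class pattern came closest to that of *Hsp90aa1*, by the mean of the within-batch correlations among 4192 genes, were *Suclg1* (0.88), a tricarboxylic acid cycle enzyme, *Pebp1* (0.83), a RAF kinase inhibitor, and *Dync2h1* (0.82), the ciliary transport dynein heavy chain.

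For *Hsp90ab1* they were *Rbm17* (0.92), *Eef1g* (0.85) and *Ranbp1* (0.83), for *Hspa8* *Polr1d*, *Ranbp1* (both 0.80) and *Psmb1* (0.79), and for *Hspb1* *Mfap5* (0.85), *Pamr1* (0.84) and *Hhip* (0.83). *Nsa2* (0.85), *Rpl39* and *Rps18* (both 0.80) came closest to *Hspe1*, and *Ptov1*, *Sdf2* (both 0.80) and *Impad1* (0.79) to the sparse *Dnajb1*. For *Hsph1*, *Hspa1a* and *Hspa1b*, whose sums are mostly 3 UMIs or fewer, the closest were *Fndc1*, *Parva* (both 0.72) and *Huwe1* (0.58).

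To place the 9 genes among related ones, UMIs were summed by class and batch and 8862 genes were tested with edgeR's quasi-likelihood test, with the batch as a block and Benjamini-Hochberg adjustment. Ciliated-like cells were compared with the mean of the 3 alveolar classes. Of all genes, 10.7% (947) were higher and 13.7% (1215) lower at an adjusted p under 0.05, around a median log2 fold change of -0.47. That split depended on scaling: with library totals in place of TMM factors 1531 were higher and 557 lower (median 0.18), and with DESeq2 1318 and 596 (median 0.20). The 9 genes were chosen on these sums, so their values from this fit and those of the other contrasts are given with no call. The lists of related genes were also chosen with earlier results of these data known. Their counts and adjusted p-values are therefore no independent evidence.

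The fitted log2 fold change of *Hsp90aa1* was 2.67 (SE 0.26) with TMM factors. Its values in each batch alone, which were computed without TMM factors, were 3.90 and 2.81. The fitted value was 3.44 without TMM factors and 3.39 with DESeq2, so it stood above the median of all genes under each scaling. *Hsp90ab1* had -0.29 with TMM, 0.44 without and 0.31 with DESeq2, and its direction in ciliated-like cells therefore depended on the scaling. *Hspa1a*, *Hspa1b* and *Hsph1* did not pass the filter on low counts.

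Other cytosolic chaperones and co-chaperones were higher in ciliated-like cells in 8 of 23 tested genes and lower in none, against the 10.7% of all genes, with a median log2 fold change of 0.62. The count was 14 without TMM factors, 12 with DESeq2 and 6 without the block. *Hspa4l*, an HSP110 relative of *Hsph1*, had 8.64 and 13 UMIs per 10000 in ciliated-like cells against 0.461 and 0.617 in the pooled alveolar classes. Its log2 fold change was 3.74 (SE 0.30, adjusted p = 4.1e-16 by edgeR's quasi-likelihood test with Benjamini-Hochberg adjustment).

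*Hspa2*, an HSP70 gene best known from male germ cells, had 4.80 and 2.63 per 10000 against 0.023 and 0.094, with a log2 fold change of 4.73 (SE 0.51, edgeR adjusted p = 1.8e-11). *Ptges3*, the HSP90 co-chaperone p23, had 4.16 and 8.04 against 0.854 and 1.14 (log2 fold change 2.03, edgeR adjusted p = 8.7e-08). *Stip1*, which hands clients from HSP70 to HSP90, had 1.60 and 2.07 against 0.392 and 0.214 (2.22, edgeR adjusted p = 1.1e-05), and *Hspbp1*, an HSP70 exchange factor, had 3 and 11 UMIs (2.25, edgeR adjusted p = 0.0079). The other genes that passed were *Ahsa1*, *Ppid* and *Dnajc7*, of which *Ahsa1* and *Ppid* encode HSP90 co-chaperones. *Ahsa1* had 3 UMIs in ciliated-like cells of Batch 1. *Dnajc7* was not higher in Batch 1, at 0.64 (2 UMIs) against 0.669 per 10000 in the pooled alveolar classes, and had 2.58 against 0.529 in Batch 2.

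The dynein arm assembly factors were higher in 11 of 12 tested genes (7 with DESeq2), but the class is named by ciliary genes, so that count adds no independent evidence. *Lrrc6* had 2.24 and 3.24 per 10000, *Pih1d2* 1.28 and 3.34 and *Dyx1c1* 0.96 and 0.607. *Dnajb13*, which is counted in the list but is not an established assembly factor, had 1.92 and 0.86. *Zmynd10* had 0.96 and 1.52 and no UMI in the pooled alveolar classes, which makes it at least 27.7-fold and 324-fold higher with 3 UMIs over the pooled classes as the floor. With genes at or under that floor set to it, the median ratio of the list was 24.5 and 64.0, against 1.98 and 2.15 for the cytosolic chaperones.

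For chaperones of other compartments the counts were small and lay near the shares of all genes, 10.7% higher and 13.7% lower. Of TRiC genes 12.5% and of mitochondrial chaperones 16.7% were higher, and of ER chaperones 15.4% were lower. TRiC, the cytosolic chaperonin, had 1 of 8 genes higher (*Cct7*, log2 fold change 0.96, edgeR adjusted p = 0.026), and mitochondrial chaperones 1 of 6 (*Hspd1*, the HSP60 partner of *Hspe1*, 1.04, edgeR adjusted p = 0.036); both counts were 0 without the block. ER chaperones had 0 higher and 2 lower of 13, *Dnajb9* (-1.78, edgeR adjusted p = 0.048) and *Serpinh1* (-1.48, edgeR adjusted p = 0.035), but of 10 alternatives these calls held in 3 and 2. Both genes kept a negative value in all 10, and the count for the list was 2 higher, which were other genes, and 0 lower without TMM factors and with DESeq2. *Hsbp1*, the heat shock factor binding protein, had 0.68 (edgeR adjusted p = 0.12).

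The small heat shock protein *Cryab* was lower in ciliated-like cells, with a log2 fold change of -3.87 (edgeR adjusted p = 5.9e-07). It was mainly an AT1 gene here, at 10.5 and 7.49 per 10000 in AT1-like and 0.233 and 0.512 in AT2-like cells. *Hspb8* had -1.66 (edgeR adjusted p = 0.061), and *Hspb2* had no UMI in ciliated-like cells. Of 17 immediate early genes, 3 were lower (*Klf4*, *Ier3* and *Btg2*) and none higher, and the 3 did not pass without TMM factors, with DESeq2 or without the block.

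**Figure D5:**
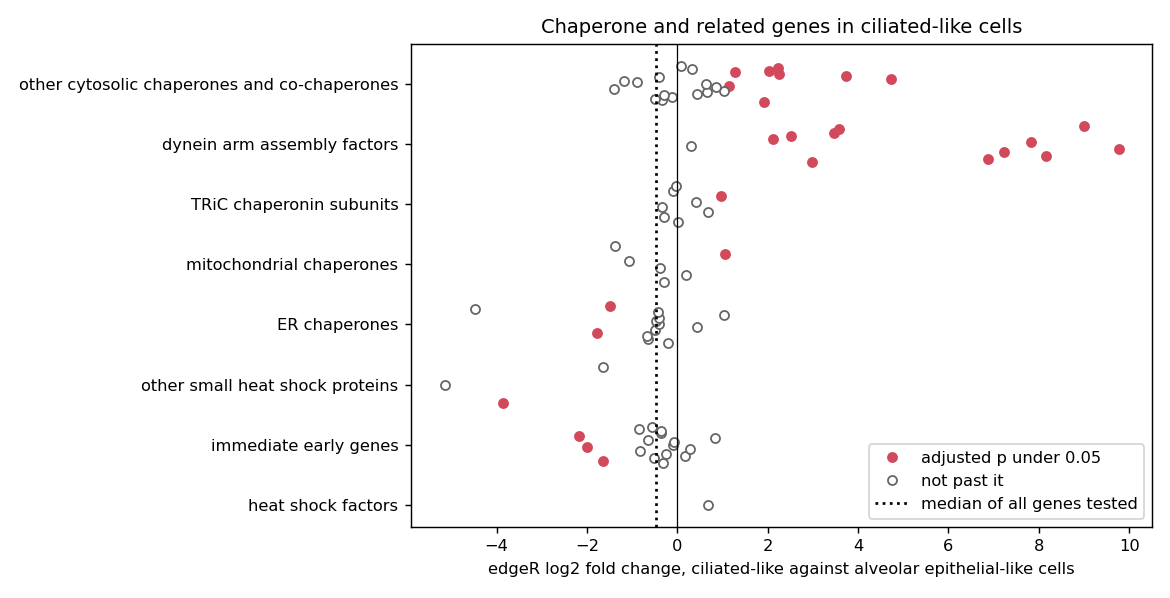
Log2 fold changes of the chaperone and immediate early lists in ciliated-like cells against the alveolar classes, from edgeR with TMM factors, 1 point per gene. Filled points have an adjusted p under 0.05, and the dotted line is the median of all genes (-0.47). Filled points are 8 of 23 among cytosolic chaperones and 11 of 12 among dynein arm assembly factors, all to the right of 0.

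In the other 3 contrasts, each against the mean of the matrix fibroblast, myofibroblast or smooth muscle and pericyte classes, the values share those mesenchymal sums. Blood endothelial-like cells had 14.4% of genes higher and 9.56% lower (1275 and 847, or 994 and 1072 with DESeq2). *Hspa8* had a fitted log2 fold change of 0.95 (SE 0.25), *Hsp90ab1* of 0.64 (SE 0.24) and *Hsp90aa1* of -0.78 (SE 0.29). Among the cytosolic chaperones *Dnaja1*, a J-domain partner of HSPA8, was higher (0.92, edgeR adjusted p = 0.0034), and *Hspa2* and *Dnajb4* were lower. Without the block *Dnaja1* and *Hspa2* did not pass, and *Hspa2* also failed with DESeq2 and with a mitochondrial limit of 5%.

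Of the blood endothelial-like immediate early genes 4 of 17 were higher, led by the flow-responsive factors *Klf2* (log2 fold change 4.06) and *Klf4* (3.66), with *Ier3* and *Ier2*, and *Fos* was lower. With DESeq2 *Ier3*, *Ier2* and *Fos* did not pass, and without the block *Ier2* and *Fos* did not. The small heat shock protein genes *Cryab* (-3.37) and *Hspb2* (-3.37) were lower, and *Grpel1*, a mitochondrial HSP70 exchange factor, was higher (0.97, edgeR adjusted p = 0.012). *Grpel1* did not pass without the block.

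Macrophage or monocyte-like cells had 17.7% of genes higher and 16.2% lower (1570 and 1433, or 1251 and 1773 with DESeq2). *Hspa8* had a fitted log2 fold change of 1.03 (SE 0.26) and *Hspb1* of -3.57 (SE 0.57). Among related genes *Dnajb4* (-2.37), *Cryab* (-2.02), *Hspb2* (-3.42) and the collagen chaperone *Serpinh1* (-5.40) were lower and the ER chaperone partner *Sdf2l1* was higher (3.59, edgeR adjusted p = 4.5e-05). *Dnajb13* also passed, on 3 UMIs in each batch, but not with DESeq2. *Hspb2* did not pass without the block, nor *Cryab* with a mitochondrial limit of 5%. Immediate early genes were higher in 13 of 17, among them *Nr4a1* (2.83), *Fos* (2.62), *Ier3* (2.15), *Atf3* (2.10) and *Junb* (1.90), and in 7 with DESeq2 and 4 without the block.

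The alveolar classes AT1-like and AT2-like had 17.7% of genes higher and 14.5% lower (1573 and 1284, or 1092 and 2207 without TMM factors). *Hsp90aa1* had a fitted log2 fold change of 0.60 (SE 0.23) with TMM factors. Without them it had 0.25 in the fit and 0.20 and 0.31 in each batch alone. *Hspb1* had -0.95 (SE 0.35) with TMM factors, and -0.67 and -1.65 in each batch alone without them. The small heat shock protein genes *Hspb8* (3.21) and *Cryab* (1.82) were higher, *Hspb2* had -1.11 (edgeR adjusted p = 0.15), and *Serpinh1* was lower (-2.09). Cytosolic chaperones were higher in 5 (*Hspa4l*, *Dnajb2*, *Bag1*, *Fkbp4* and *Hspa4*) and lower in 3 (*Ahsa2*, *Fkbp5* and *Dnajc7*) of 23, a split that became 2 and 7 without TMM factors and 1 and 0 without the block. Immediate early genes were higher in 2 and lower in 6 of 17, in 2 and 4 with DESeq2 and in 1 and 0 without the block.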

How the data were processed

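Drop-seq libraries of 2 newborn mouse lungs were analysed from the deposited tables of raw UMI counts per gene and cell. Per the labels and the study's methods, the authors dissociated the tissue with TrypLE and collagenase, lysed red blood cells, aligned reads to mm10 with Bowtie2 2.2.7 (submitters' processing notes), which kept 1 place per read, and counted UMIs on exons with Drop-seq tools. Every one of the 9944 deposited cells had at least 500 genes. The authors' list of cell types was read only in part, for 1998 Batch 1 cells, and served as an alternative.

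Cells with at most 10% mitochondrial UMIs were kept (all but 1 in Batch 1 and all but 1940 in Batch 2). For clustering, counts were scaled to the median UMI total per cell and log2-transformed, and each gene was standardised within each batch. The 2000 most variable genes outside the chaperone, immediate early and mitochondrial lists entered 40 principal components. Leiden clustering (leidenalg 0.10.2) used 20 neighbours at resolution 2. A class needed at least 3 of its markers at 2-fold or more. The main airway clusters were split again at resolution 0.3. Of the listed cells in a matched class, 1748 of 1869 (93.5%) fell in the same class. No doublet caller was run, and 335 cells with at least 3 markers of another lineage were left out in an alternative.

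A level is the UMIs of a gene over all UMIs of a class, times 10000, with exact Poisson or Clopper-Pearson intervals of 95% for counting error only, and 3 counts as the floor. Raw counts were summed into 30 sums of 15 classes (17792 to 4401182 UMIs, median 213465) and fitted with edgeR 4.0.16 in R 4.3.3 (TMM, filterByExpr, batch as replicate block). Sums of a batch come from 1 mouse, which pairs them; the median correlation of their deviations over 105 pairs was 0.125 (0.019 to 0.528). With 1 mouse per batch, p-values measure the spread between sums. DESeq2 1.42.0 and other filters, scalings, resolutions and mitochondrial limits were alternatives, and the fit was tested on simulated data. The 9 genes and all lists were chosen with earlier results of these data known. The text names every member, and up to 5 genes of each list and contrast with the largest log2 fold change among those that passed in the same direction in both batches (all genes of lists with under 6 tested), and the 3 genes closest in pattern; other names complete short counts and were chosen after their values were seen.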

Additional observations from a re-analysis of the deposited data

Results flagged for a closer look

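The 1940 cells of Batch 2 with more than 10% mitochondrial UMIs, which were left out except in the alternative without that limit, also held the 9 transcripts, and that is why they are given here. Over their 5030373 UMIs *Hsp90ab1* stood at 13.1 per 10000, *Hspa8* at 5.52, *Hsp90aa1* at 5.25, *Hspb1* at 1.87 and *Hspe1* at 1.22. *Dnajb1* had 0.203, *Hsph1* 0.0954, *Hspa1a* 0.0378 and *Hspa1b* 0.0219. Each level was below that of the kept cells of the batch, 16.0 for *Hsp90ab1*, 6.63 for *Hspa8*, 6.43 for *Hsp90aa1*, 3.15 for *Hspb1* and 1.33 for *Hspe1*. The difference was not tested, and it did not run through every class. With all cells clustered together, *Hsp90aa1* stood at 7.32 per 10000 over the limit and 7.26 within it in AT1-like, 6.25 and 6.18 in AT1 and AT2-like, 2.62 and 2.53 in blood endothelial-like and 4.25 and 4.05 in matrix fibroblast-like cells. It stood at 36.5 (33 cells) and 42.9 in ciliated-like and 5.90 and 8.47 in myofibroblast or smooth muscle-like cells.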

How the results depend on the processing

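No call reversed its sign. *Hsp90ab1* in the ciliated-like contrast, which had no call, changed sign with the scaling. *Hsp90aa1* in ciliated-like cells averaged 54.7 per 10000, and 43.6 to 65.9 when either batch was left out. An alternative chosen after seeing the data left out the cells over 100 per 10000, which lowered Batch 1 from 65.9 to 46.6. Detection of *Hsp90aa1* in ciliated-like cells of Batch 2 moved from 93.8% to 85.7% at 600 UMIs and to 75% for at least 2 UMIs. With a mitochondrial limit of 5%, 7369 genes were tested and 1435 (ciliated-like contrast) and 1862 (macrophage or monocyte-like contrast) were called. Without the replicate block that pairs the sums by mouse, 1585 genes were called in the ciliated-like and 2134 in the alveolar contrast. The blood endothelial-like contrast then had 1490 and the macrophage or monocyte-like contrast 2294. Of 86 fold changes of named genes, 28 no longer passed without the block and 21 no longer passed with DESeq2. The 86 include fold changes that did not pass in the main fit, such as those of *Hsbp1*. The share of calls lost is therefore larger than these counts out of 86. Secretory airway-like cells, 4 in Batch 1, could not be fitted, and with 1 batch left out the values have no test. Depth leaves *Hspa1a* and *Hspa1b* without an order of classes, and 8 ciliated-like cells in Batch 1 limit every value of that class.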
